A study of Homo sapiens with 8 samples.

Results

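Gene expression of the human lung adenocarcinoma line HCC827 was set against that of the lung adenocarcinoma line A549 after growth on a 3D collagen scaffold. The comparison used 4 of the 8 arrays of the study, chosen by their labels as 3D cultures. They were 1 gefitinib-treated and 1 control array of HCC827, and 1 gefitinib-treated and 1 control array of A549. The other 4 arrays held the same lines and treatments in 2D culture on plastic and served to ask which line differences were also present there. HCC827 is labelled as carrying an activating EGFR mutation and A549 as lacking one. On the scaffold 100000 cells per line were grown for 14 days, and treated cultures were given gefitinib at 1 µM, which blocks the kinase activity of EGFR, from day 11 for 3 days. The 2D cultures started from 200000 cells and were grown for 7 days, and their treated arrays also had 1 µM gefitinib. Controls had no inhibitor. RNA came from bead-lysed scaffolds on micro columns and from 2D cells on mini columns, and the effects of culture and of RNA preparation cannot be told apart. Each condition had 1 array, and each line is 1 established culture that stands for no other tumour.

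EGFR is a receptor tyrosine kinase whose signal runs through ERK to growth genes, and activating mutations in its kinase domain make lung cancer cells depend on it. A549 is known for an altered KEAP1, the protein that holds the oxidative defence factor NRF2 in check, and for deletion of the CDKN2A locus. A collagen scaffold lets epithelial cells attach to matrix on all sides, form layers and meet gradients of oxygen and nutrients that a plastic dish lacks.

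The values were log2 signals after robust multi-array averaging (RMA), and 1 probe set stood for each gene. Of 18244 genes measured, the 11926 that exceeded the median of the array on 2 or more arrays were tested. The arrays of a line and culture were taken as a pair, and the pairs were compared with limma. Levels of a pair are those of its gefitinib and control arrays. The spread within a pair holds the gefitinib effect as well as scatter between cultures, since no condition was repeated. A gene was called when its adjusted p was under 0.05 and both HCC827 arrays lay on the same side of both A549 arrays. Differences are HCC827 minus A549 on the log2 scale, ± the standard error of the fit. A level near 6 or 7 lay close to that of the background probe sets, which averaged 6.63 to 6.77 on the scaffold arrays, and a difference against such a level holds that floor.

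The A549 scaffold arrays were more alike than the HCC827 scaffold arrays, with a correlation across probe sets of 0.978 for the HCC827 pair and 0.995 for the A549 pair. Between the lines it was 0.888 to 0.902. The keratin and adhesion genes that mark epithelium (EPCAM, KRT8, KRT18 and KRT19) were above the array median on all 4 scaffold arrays. Of 8 fibroblast markers, 1 or 2 were above the array median in HCC827 and 0 in A549, with summed levels of 52.7 to 54.1 in HCC827 and 51.6 to 52.3 in A549, and none exceeded 7.54. Of the markers bright enough to test, 1 of 2 fibroblast and 1 of 3 endothelial genes were called higher in HCC827, and 1 of 3 endothelial and 1 of 3 leukocyte genes lower. Endothelial markers were summed to 55.3 to 55.5 in HCC827 and 54.0 to 55.1 in A549, and muscle markers to 55.2 to 55.3 in both lines. Leukocyte markers were summed to 49.6 to 50.8 in HCC827 and 51.2 to 51.6 in A549. The difference between 3′ and 5′ probe sets of actin, which grows as RNA is shortened, was 2.64 and 2.34 in HCC827 and 1.74 and 1.67 in A549 on the scaffold, against values between -0.14 and -0.05 in 2D. The GAPDH probe sets gave 1.57 and 0.97 in HCC827 and 0.54 and 0.55 in A549 on the scaffold. Hybridization controls averaged 11.64 in HCC827 and 11.2 in A549 on the scaffold, and the Dap spike-in 12.9 in HCC827 and 12.52 in A549. With 2 against 2 arrays an exact permutation test cannot go below p = 0.333, so none of these differences could pass a threshold. As values, the measures of RNA shortening were higher in HCC827 on the scaffold and higher on the scaffold than in 2D, and their part in the results was not tested.

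In HCC827 the 2D arrays stood the other way round from the 3D arrays for DUSP6, a phosphatase that ERK signalling induces. It read 8.16 with gefitinib and 11.48 without it on the scaffold, but 10.21 in the 2D array labelled gefitinib and 6.57 in the 2D array labelled control. The comparisons of lines average the pair of each line and culture, so they do not depend on which 2D array of HCC827 is called treated. The fits given below with treatment, or line by treatment, as a term do use these labels as they stand, and were not run with the labels of that pair exchanged.

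On the scaffold 5410 of 11926 tested genes were called, or 45.4%. HCC827 was higher in 2270 of them (19.0% of tested genes) and lower in 3140 (26.3%). A difference of at least log2 1 was seen in 2210 called genes (18.5%), 949 higher in HCC827 (7.96%) and 1261 lower (10.6%). Without a test, the arrays of the lines did not overlap in 8785 genes (73.7%), 3877 higher in HCC827 (32.5%) and 4908 lower (41.2%). The lean toward lower values depended on scaling. HCC827 was higher in 42% of called genes with the deposited values, in 52.1% after quantile normalization and in 52.9% after cyclic loess normalization, and for differences of at least log2 1 in 42.9%, 52.3% and 53.3%. These scalings moved the median of all genes by 0.10 and 0.11. In 2D, 4588 genes were called (38.5%), 2290 higher in HCC827 (19.2%) and 2298 lower (19.3%), and the arrays of the lines did not overlap in 72.0% of tested genes, 36.0% in each direction. The number of calls also rested on single A549 arrays. Leaving out the A549 3D control array left 1391 genes called higher in HCC827, and leaving out the A549 3D gefitinib array left 1483 higher and 1969 lower. Of the 949 genes higher by at least log2 1 on the scaffold, 916 had their 2D arrays apart on the same side, 31 overlapped in 2D and 2 lay on the other side. Of the 1261 lower genes, these counts were 1194, 56 and 11.

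**Figure D1:**
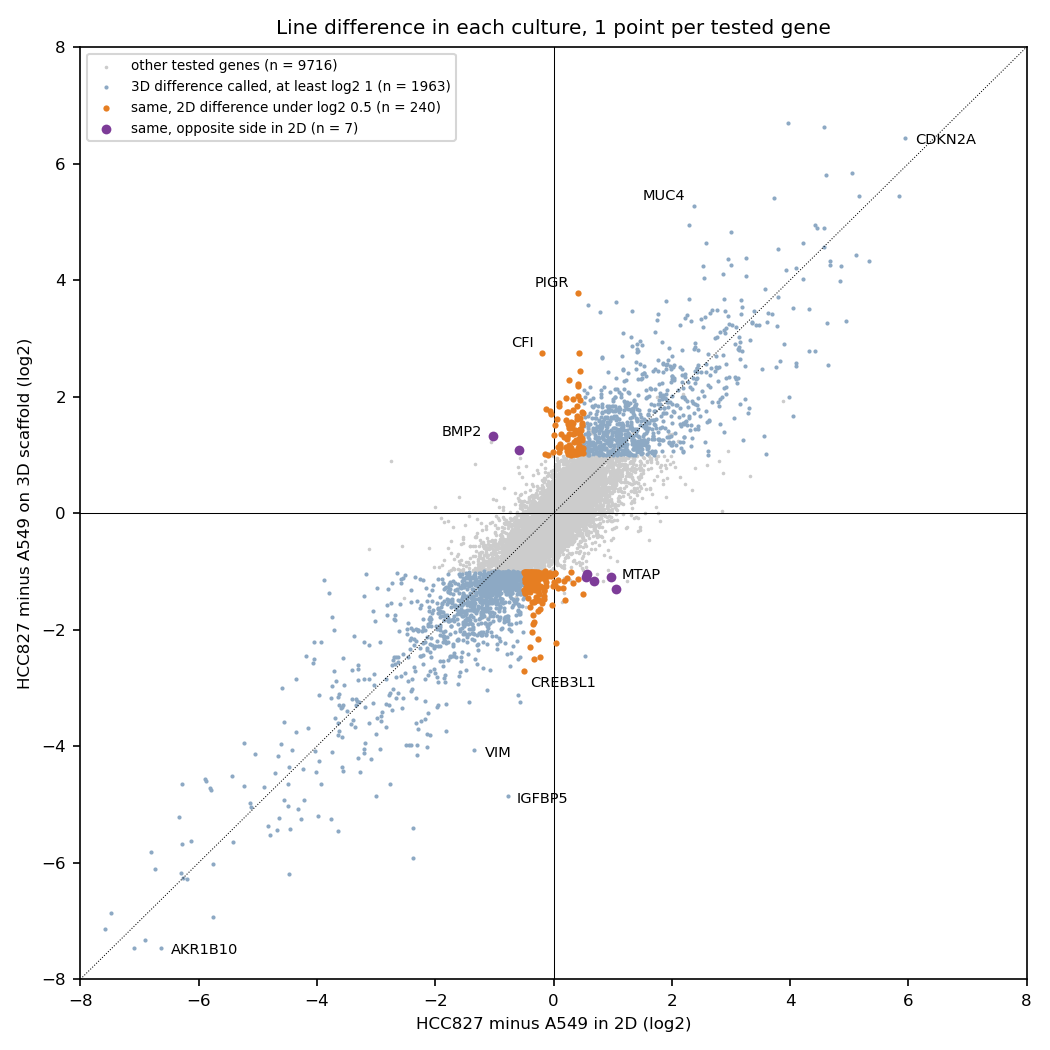
The line difference on the scaffold (y axis, log2) is plotted against the line difference in 2D (x axis, log2) for 11926 genes, with the dotted line marking equal differences. Most called genes lie along that line, 240 genes in orange lie near 0 in 2D, and 7 genes in purple lie on the other side of 0.

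The largest differences marked lineage, detoxification and plasma protein genes. CDKN2A, the cell cycle inhibitor locus deleted in A549, read 13.17 and 13.14 in the HCC827 scaffold arrays and 6.58 and 6.85 in the A549 scaffold arrays, a difference of 6.44 ± 0.18 (adjusted p = 8.45e-07). ADGRF1, an adhesion G protein-coupled receptor, read 12.64 and 12.60 in HCC827 and 6.14 and 5.82 in A549 (6.63 ± 0.32). NKX2-1, the transcription factor of lung lineage, read 12.12 and 12.22 in HCC827 and 6.56 and 6.16 in A549 (5.81 ± 0.18). In all 3 genes the A549 arrays lay near background and both HCC827 arrays were far above them. LCP1, an actin-bundling protein best known from leukocytes, was higher by 5.45 ± 0.18 and CCN1, a matricellular protein, by 5.44 ± 0.37. The other large rises were the surfactant-associated SFTA2 (5.84 ± 0.18) and SFTA3 (5.40 ± 0.30), the membrane mucin MUC4 (5.27 ± 0.13) and the axonemal dynein DNAH2 (4.94 ± 0.30).

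At the other end stood AKR1B10, an aldo-keto reductase, with 6.81 and 7.53 in HCC827 and 14.59 and 14.69 in A549 (-7.47 ± 0.38). ALDH3A1, an aldehyde dehydrogenase, read 6.62 and 6.53 in HCC827 and 13.99 and 14.10 in A549 (-7.47 ± 0.14). The carbonic anhydrase CA12 (-7.33 ± 0.21), the aldehyde dehydrogenase ALDH1A1 (-7.14 ± 0.16) and the aldo-keto reductase AKR1C2 (-6.86 ± 0.20) were lower by similar amounts. AKR1C genes resemble each other closely, and a probe set may read more than 1 of them. The fibrinogen chains FGA (-6.93 ± 0.19), FGG (-6.28 ± 0.22) and FGB (-6.27 ± 0.31), the complement protein C3 (-6.20 ± 0.25) and the deubiquitinating enzyme UCHL1 (-6.18 ± 0.17) completed the 10 largest falls. The same genes were apart in 2D on the same side. For MUC4 and DNAH2 the scaffold difference was wider than the 2D difference, by 2.90 ± 0.18 (adjusted p = 0.00186) and 2.65 ± 0.42 (adjusted p = 0.03). MUC4 in HCC827 read 11.20 and 11.28 on the scaffold and 8.36 and 8.67 in 2D, whereas A549 lay between 5.94 and 6.19 in both cultures.

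**Figure D2:**
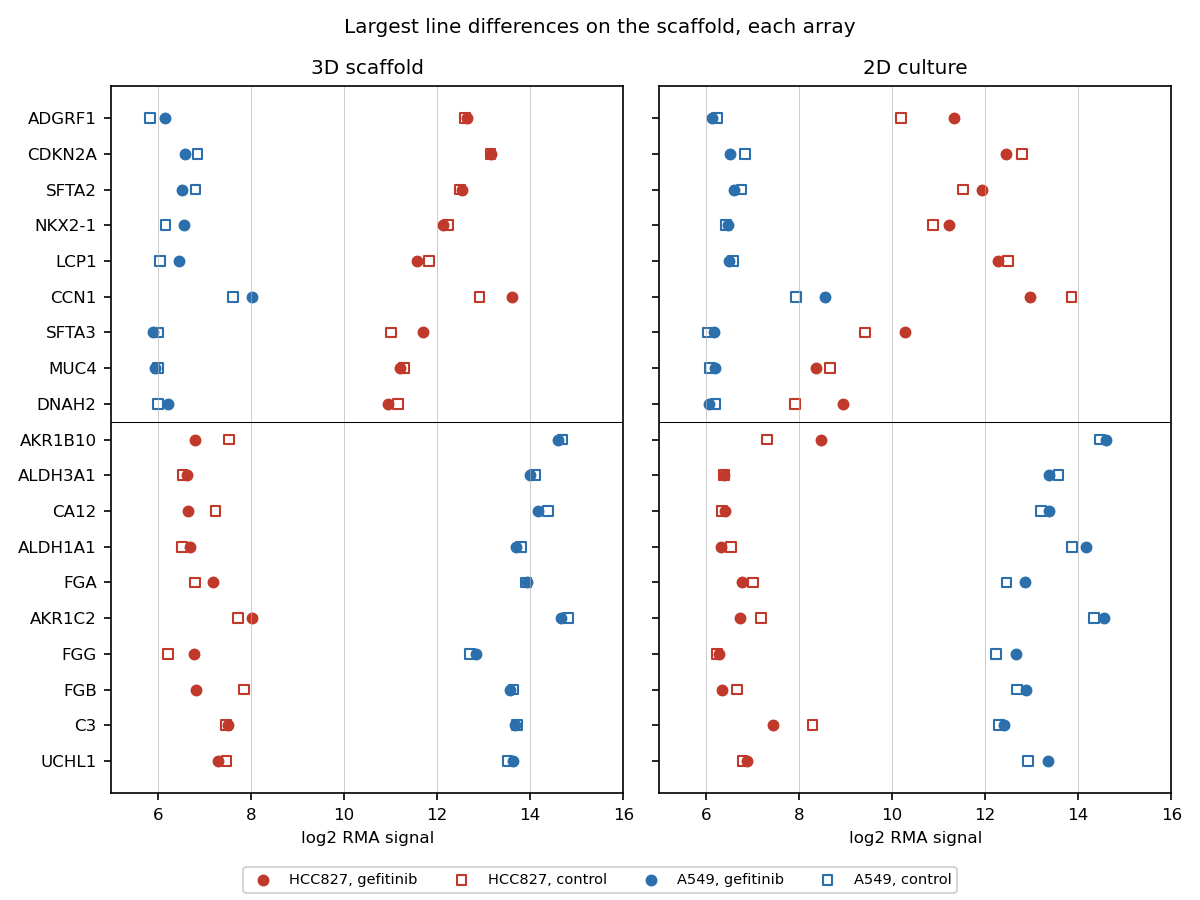
Log2 RMA signal (x axis) of the genes with the largest line differences on the scaffold is shown for each array, with the scaffold on the left, 2D on the right, HCC827 in red and A549 in blue. The lines do not overlap for any of these genes in either culture, and MUC4, DNAH2 and ADGRF1 sit closer to A549 in 2D.

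Junction and epithelial identity genes were mostly higher in HCC827. The share of each list called is given in parentheses, to be read against 45.4% of all tested genes called, 19.0% higher and 26.3% lower. Of 32 tested junction genes, 21 were higher and 1 lower (68.8%), with a median of 1.74 on the scaffold and 1.48 in 2D, beside medians of -0.06 and 0 over all genes. ESRP1, a splicing regulator of epithelia, read 10.70 and 11.12 in HCC827 and 5.97 in both A549 arrays (4.94 ± 0.22). The placental cadherin CDH3 was higher by 4.89 ± 0.25 and the tight junction protein CLDN4 by 4.57 ± 0.29. CDH1, the epithelial cadherin, read 12.58 and 12.78 in HCC827 and 11.40 and 11.09 in A549 (1.44 ± 0.18). EPCAM, an adhesion molecule of epithelia, read 12.37 and 12.88 in HCC827 and 7.89 and 7.72 in A549 (4.82 ± 0.19). In 2D its levels were 12.82 and 12.70 in HCC827 and 9.77 and 9.74 in A549. A549 was thus lower on the scaffold, while the HCC827 arrays of the 2 cultures overlapped. The line difference of EPCAM was wider on the scaffold by 1.81 ± 0.27 (adjusted p = 0.0253).

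Keratins and CEACAM adhesion proteins did not follow the junction genes. Of 13 tested, 3 were higher and 6 lower (69.2%). The keratin KRT8 read 11.47 and 12.65 in HCC827 and 14.24 and 14.32 in A549 (-2.22 ± 0.41), and CEACAM5 was lower by 2.45 on the log2 scale (-2.45 ± 0.34). KRT4 was higher by 1.96 ± 0.41 and KRT80 by 1.53 ± 0.42. Among mesenchymal genes 2 of 15 were higher and 6 lower (53.3%), with a median of -0.64 on the scaffold and -0.06 in 2D. S100A4, a calcium-binding protein of motile cells, read 8.12 and 8.15 in HCC827 and 14.05 and 14.26 in A549 (-6.02 ± 0.16). VIM, the mesenchymal intermediate filament, read 9.06 and 9.42 in HCC827 and 13.32 in both A549 arrays (-4.08 ± 0.53). In 2D it read 10.71 and 12.60 in HCC827 and 13.24 and 12.74 in A549. The difference of VIM between cultures was -2.73 ± 0.74 and missed the threshold (adjusted p = 0.123). The receptor tyrosine kinase AXL was lower by 4.66 on the scaffold (-4.66 ± 0.22) and by 2.76 in 2D (-2.76), and the gap of -1.90 ± 0.31 passed (adjusted p = 0.0332). TNC, a matrix glycoprotein, went the other way, at 8.49 and 11.36 in HCC827 and 6.20 and 6.29 in A549 (3.68 ± 0.81).

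Genes of oxidative defence that NRF2 drives were lower in HCC827 almost throughout. Of 24 tested, 0 were higher and 22 lower (91.7% called), with a median of -1.16 on the scaffold and -1.58 in 2D. NQO1, a quinone reductase, read 10.78 and 11.16 in HCC827 and 13.87 and 13.84 in A549 (-2.89 ± 0.20). The glutathione peroxidase GPX2 was lower at -4.56 ± 0.18, the export pump ABCC2 at -4.06 ± 0.36 and the pentose phosphate enzyme PGD at -4.06 ± 0.22. Of 19 aldo-keto reductases and aldehyde dehydrogenases, 1 was higher and 13 lower (73.7%), with a median of -1.64. The xCT cystine transporter SLC7A11, which both NRF2 and the amino acid stress factor ATF4 induce, read 8.42 and 8.89 in HCC827 and 11.42 and 11.51 in A549 (-2.81 ± 0.18).

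Plasma proteins, normally products of the liver, and complement components were also lower in HCC827. Of 22 plasma protein genes 1 was higher and 16 lower (77.3%, median -1.01), and of 16 complement genes 1 was higher and 9 lower (62.5%, median -1.45). The retinol carrier RBP4 read 6.95 and 7.04 in HCC827 and 12.06 and 12.01 in A549 (-5.04 ± 0.16). The complement protease CFD was lower at -5.08 ± 0.24, C5 at -4.64 ± 0.20 and the protease C1S at -3.67 ± 0.44. CFI, a protease that degrades activated complement, was the 1 complement gene that was higher (2.74 ± 0.26).

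IGF binding proteins, which carry insulin-like growth factors outside the cell, had the lowest median of the lists described here. Of 8 tested, 0 were higher and 6 lower (75.0%), with a median of -3.68 on the scaffold and -1.97 in 2D. IGFBP5 read 5.93 and 5.90 in HCC827 and 10.52 and 11.03 in A549 on the scaffold (-4.87 ± 0.22). In 2D it read 6.01 and 6.17 in HCC827 and 7.14 and 6.58 in A549. HCC827 was near background in both cultures, and A549 was higher on the scaffold by 3.91. The difference between cultures was -4.09 ± 0.31 (adjusted p = 0.00258). IGFBP1 read 6.85 and 8.79 in HCC827 and 13.56 and 13.92 in A549 (-5.92 ± 0.54), and its difference between cultures of -3.54 ± 0.77 missed the threshold (adjusted p = 0.0739). IGFBP4 was lower at -5.53 ± 0.24 and IGFBP6 at -3.98 ± 0.34.

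Lung lineage genes were 8 higher and 5 lower of 22 (59.1%), with a median of 0.32 on the scaffold and 0.0 in 2D. The members named here are all higher in HCC827, and none of the 5 lower ones is named. Beside NKX2-1, SFTA2 and SFTA3, the aspartic protease NAPSA, which processes surfactant protein, was higher by 4.11 ± 0.21 in HCC827, with A549 at 8.09 and 8.29. Products of airway secretory cells split between the lines, with 7 higher and 13 lower of 22 (90.9% called). TFF1, a trefoil peptide of mucous cells, read 6.79 and 7.00 in HCC827 and 11.75 and 12.52 in A549 (-5.24 ± 0.41). The gel-forming mucin MUC5B read 9.18 and 10.94 in HCC827 and 14.01 and 14.32 in A549 (-4.11 ± 0.55). MUC4, as given above, and PIGR, which carries polymeric immunoglobulin across epithelium, stood on the other side.

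Genes that interferon induces were 21 higher and 4 lower in HCC827 of 36 tested (69.4% called). Interferon acts through STAT proteins and IRF9, which bind a response element whose core is a pair of GAAA runs with 2 bases of any kind between them in the promoters of such genes. IFI27 read 11.23 and 11.78 in HCC827 and 7.13 and 7.22 in A549 (4.33 ± 0.33). BST2, which tethers virus particles to the cell surface, read 10.53 and 10.92 in HCC827 and 6.60 and 6.70 in A549 (4.08 ± 0.34). IFI44 was higher by 3.50 ± 0.19. IFITM2 read 9.11 and 9.67 in HCC827 and 13.03 and 12.89 in A549 (-3.57 ± 0.23), and its probes may also read the near-identical IFITM3. The median of the list was 0.94 on the scaffold and 1.81 in 2D. The scaffold difference exceeded the 2D difference in 3 of 36 genes, but no gene of the list passed the test of the change between cultures. ISG15, IFIT1 and ISG20 are given here for their promoters and were chosen after their values were seen. ISG15, a ubiquitin-like protein, read 10.63 and 10.82 in HCC827 and 8.20 and 8.22 in A549 on the scaffold, and 11.67 and 12.67 in HCC827 and 8.13 and 7.99 in A549 in 2D. IFIT1, a sensor of viral RNA, read 7.10 and 7.02 in HCC827 and 7.04 and 7.08 in A549 on the scaffold, and 9.27 and 10.32 in HCC827 and 8.09 and 7.97 in A549 in 2D. The nuclease ISG20 was lower in HCC827 (-2.00 ± 0.20).

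Stretches of 6 of these promoters, picked among those that hold the element, are shown because their genes' line differences did not go one way. The RefSeq promoter table (GRCh38.p14) was searched on both strands for the core, which reads as a pair of TTTC runs on the other strand, within 250 bases before the start of each gene. No other motif was searched. The core was found in 839 of 27305 promoters (3.07%), in 213 of the 9807 promoters of tested genes (2.17%) and in 18 of the 28 promoters available for tested genes of the list (64.3%). Among list genes higher in HCC827 on the scaffold, 11 of 19 promoters held it (57.9%). Each stretch is written 5′ to 3′ on the strand of its gene, with matches to the core or its reverse complement in capitals.
IFI27, chr14:94110613-94110665, plus strand: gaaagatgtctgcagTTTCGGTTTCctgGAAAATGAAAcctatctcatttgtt
BST2, chr19:17405730-17405775, minus strand: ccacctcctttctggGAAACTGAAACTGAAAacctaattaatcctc
IFI44, chr1:78649756-78649788, plus strand: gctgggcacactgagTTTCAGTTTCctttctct
ISG15, chr1:1013369-1013414, plus strand: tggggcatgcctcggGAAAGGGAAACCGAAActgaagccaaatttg
IFIT1, chr10:89392492-89392544, plus strand: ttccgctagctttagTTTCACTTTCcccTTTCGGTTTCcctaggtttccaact
ISG20, chr15:88638932-88638971, plus strand: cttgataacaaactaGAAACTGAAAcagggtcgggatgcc
The promoters shown belong to genes that were higher (IFI27, BST2, IFI44, ISG15), that overlapped between the lines (IFIT1) and that were lower in HCC827 (ISG20). A match is a run of letters and does not show binding.

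Antigen presentation genes were 10 higher and 2 lower in HCC827 of 22 (54.5%). HLA-B, a class I molecule, read 11.98 and 12.11 in HCC827 and 9.97 and 9.79 in A549 (2.17 ± 0.16), and the peptide transporter TAP2 was higher by 1.36 ± 0.18. HLA class I genes resemble each other, and their probe sets may share signal. HLA-DMB, which loads peptides on class II molecules, was lower at -3.85 ± 0.21. Of 27 chemokine and NF-kB genes, 12 were higher and 4 lower (59.3%). SAA1, an acute phase protein, read 9.82 and 11.08 in HCC827 and 6.57 and 6.26 in A549 (4.04 ± 0.45). The adhesion molecule ICAM1 (3.48 ± 0.44) and the membrane chemokine CX3CL1 (3.10 ± 0.33) were higher, and the cytokine IL18 was lower (-3.17 ± 0.37).

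EGFR itself read 11.12 and 11.66 in HCC827 and 8.43 and 8.66 in A549 on the scaffold (2.84 ± 0.24, adjusted p = 9.22e-05), and 10.96 and 10.40 in HCC827 and 8.36 and 8.21 in A549 in 2D. Its 6 probe sets above the array median all stood on the same side. Of 15 ERBB receptors, ligands and inhibitors, 3 were higher and 2 lower (33.3%), which is under the 45.4% of all genes. ERBB3, the kinase-impaired partner receptor, read 10.87 and 10.83 in HCC827 and 10.21 and 10.02 in A549 (0.74 ± 0.13). The ligand NRG1 was lower (-1.04 ± 0.25). Other receptor kinases and ligands were 6 higher and 9 lower of 22 (68.2%). IRS2, the adaptor of insulin and IGF receptors, was lower (-3.03 ± 0.20), and the receptor MERTK was higher (1.98 ± 0.22).

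Several growth and oxygen-response genes stood above A549 in one treatment and below it in the other, so that the line difference over the pair was near 0. DUSP6 on the scaffold read 8.16 with gefitinib and 11.48 without in HCC827, and 9.75 with gefitinib and 9.81 without in A549. HCC827 thus lay 1.58 lower among gefitinib arrays (-1.58) and 1.67 higher among control arrays. With a cut at log2 1 in each direction, 4 tested genes behaved this way, and in all 4 HCC827 was higher among controls. Apart from DUSP6 they were chosen after their values were seen. RRM2, a ribonucleotide reductase subunit, read 8.16 with gefitinib and 11.37 without in HCC827, against 9.64 and 9.83 in A549. CDC6, a replication licensing factor, read 7.66 with gefitinib and 9.99 without in HCC827, against 8.93 and 8.94 in A549. HILPDA, a lipid droplet protein induced by low oxygen, read 9.29 with gefitinib and 11.89 without in HCC827, against 10.36 and 10.74 in A549. A single array stands behind each of these values, and no test was made.

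Medians of related lists are given for each treatment as values, with 1 array per line behind each and no test. Of 44 mitosis and replication genes 1 was higher and 1 lower (4.55%), with a median of -0.34 among gefitinib arrays and 0.76 among control arrays. MKI67, the proliferation antigen, read 7.74 with gefitinib and 9.28 without in HCC827, and 8.40 with gefitinib and 9.05 without in A549, and over the pair it was not called (adjusted p = 0.822). The replication helicase subunit MCM7 was higher by 1.29 ± 0.35. Of 39 hypoxia and glycolysis genes 2 were higher and 7 lower (23.1%), with a median of -1.54 among gefitinib arrays and -0.05 among control arrays. The glycolytic enzyme PKM read 9.09 with gefitinib and 10.67 without in HCC827, and 12.37 with gefitinib and 12.58 without in A549 (-2.59 ± 0.49). VEGFA, a growth factor of blood vessels, was higher by 1.96 ± 0.46. Of 25 genes of ERK output 3 were higher and 6 lower (36.0%), with a median of -1.38 among gefitinib arrays and -0.11 among control arrays. The phosphatase DUSP4 was lower by 3.48 (-3.48 ± 0.38), and the immediate early factor EGR1 read 9.51 with gefitinib and 11.78 without in HCC827, against 8.45 and 8.51 in A549 (2.17 ± 0.73).

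D cyclins, their kinases and the cell cycle inhibitors were 3 higher and 5 lower of 13 (61.5%). CDK4, the kinase that CDKN2A products inhibit, read 13.43 and 13.81 in HCC827 and 10.57 and 10.46 in A549 (3.10 ± 0.17). CDKN2B, the neighbour of CDKN2A on chromosome 9, was higher by 2.90 ± 0.76, and the cyclin CCND3 was lower (-1.69 ± 0.22). Of 25 p53 target genes 2 were higher and 9 lower (44.0%), close to the share of all genes. The inhibitor CDKN1A was lower (-1.14 ± 0.22) and the stress gene GADD45A was higher (1.91 ± 0.45).

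Matrix genes were 6 higher and 13 lower in HCC827 of 27 (70.4%), with a median of -0.75 on the scaffold and -0.15 in 2D. The basement membrane collagen COL4A6 read 6.21 and 6.23 in HCC827 and 11.37 and 11.49 in A549 (-5.20 ± 0.13). The anchoring fibril collagen COL7A1 read 9.37 and 9.02 in HCC827 and 12.38 and 12.47 in A549 (-3.24 ± 0.18). Both differences were wider on the scaffold, by -1.23 ± 0.18 (adjusted p = 0.0253) and -1.81 ± 0.26 (adjusted p = 0.0246). COL5A2, a fibrillar collagen, was lower at -4.44 ± 0.17 with no called change between cultures. The laminin chain LAMB3 was higher by 2.36 ± 0.29.

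Integrins, the receptors that bind collagen and laminin, were 4 higher and 4 lower of 13 (61.5%). ITGB6 read 9.93 and 10.76 in HCC827 and 7.20 and 6.93 in A549 (3.28 ± 0.38), and ITGB8 was higher by 1.87 ± 0.15. The laminin-binding subunit ITGB4 was lower (-2.51 ± 0.18), as was ITGB5 (-2.06 ± 0.18). Targets of the YAP coactivator, which responds to stretch and cell density, were 5 higher and 5 lower of 21 (47.6%), close to the share of all genes. Beside CCN1, the coagulation receptor F3 read 11.89 and 12.26 in HCC827 and 7.77 and 7.50 in A549 (4.44 ± 0.18). Proteases and their inhibitors were 8 higher and 6 lower of 25 (56.0%). MMP7, a matrix protease of epithelia, was lower (-4.36 ± 0.54), the inhibitor SERPINE2 was lower (-3.80 ± 0.28), and the gelatinase MMP9 was higher (2.53 ± 0.80).

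Subunits of the respiratory chain and ATP synthase were 0 higher and 21 lower of 36 (58.3%), with a median of -0.63 on the scaffold and -0.55 in 2D. COX5A, a subunit of cytochrome c oxidase, read 9.61 and 10.18 in HCC827 and 11.98 in both A549 arrays (-2.08 ± 0.20), and the complex I subunit NDUFS4 was lower (-1.71 ± 0.13). Cytosolic ribosomal proteins were 6 higher and 7 lower of 36 (36.1%). Cholesterol and fatty acid synthesis genes were 1 higher and 8 lower of 24 (37.5%), among them the desaturase FADS2 (-2.18 ± 0.19) and the sterol enzyme SQLE (-1.92 ± 0.27). Epithelial solute carriers and channels were 1 higher and 8 lower of 13 (69.2%). The aquaporin AQP3 was lower (-3.99 ± 0.47), and the sodium channel subunit SCNN1A, at 13.04 and 13.15 in HCC827 and 10.57 and 10.10 in A549, was higher (2.76 ± 0.28).

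Amino acid stress genes driven by ATF4 were 8 higher and 6 lower of 26 (53.8%). CBS, which makes cystathionine from homocysteine, read 11.70 and 11.79 in HCC827 and 7.31 and 7.44 in A549 (4.37 ± 0.13), and its difference was wider on the scaffold by 1.11 ± 0.19 (adjusted p = 0.039). PHGDH, the first enzyme of serine synthesis, was higher by 2.08 ± 0.16. WNT and NOTCH genes were 2 higher and 12 lower of 22 (63.6%). The WNT inhibitor DKK1 read 8.35 and 8.01 in HCC827 and 12.38 and 12.28 in A549 (-4.15 ± 0.25), and the stem cell receptor LGR6 was lower (-2.81 ± 0.15). Of 20 genes of ID proteins and of BMP and TGF-beta feedback, 3 were higher and 9 lower (60%). BAMBI, a decoy receptor, was lower (-2.22 ± 0.18), as was the inhibitory SMAD6 (-1.82 ± 0.17). Nuclear RNAs and speckle proteins were 8 higher and 2 lower of 16 (62.5%). SRSF11, a splicing factor, read 13.45 and 13.32 in HCC827 and 11.54 and 11.39 in A549 (1.92 ± 0.18). That list stands beside the actin measure of RNA shortening, which was also higher in HCC827, and the relation was not tested.

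**Figure D3:**
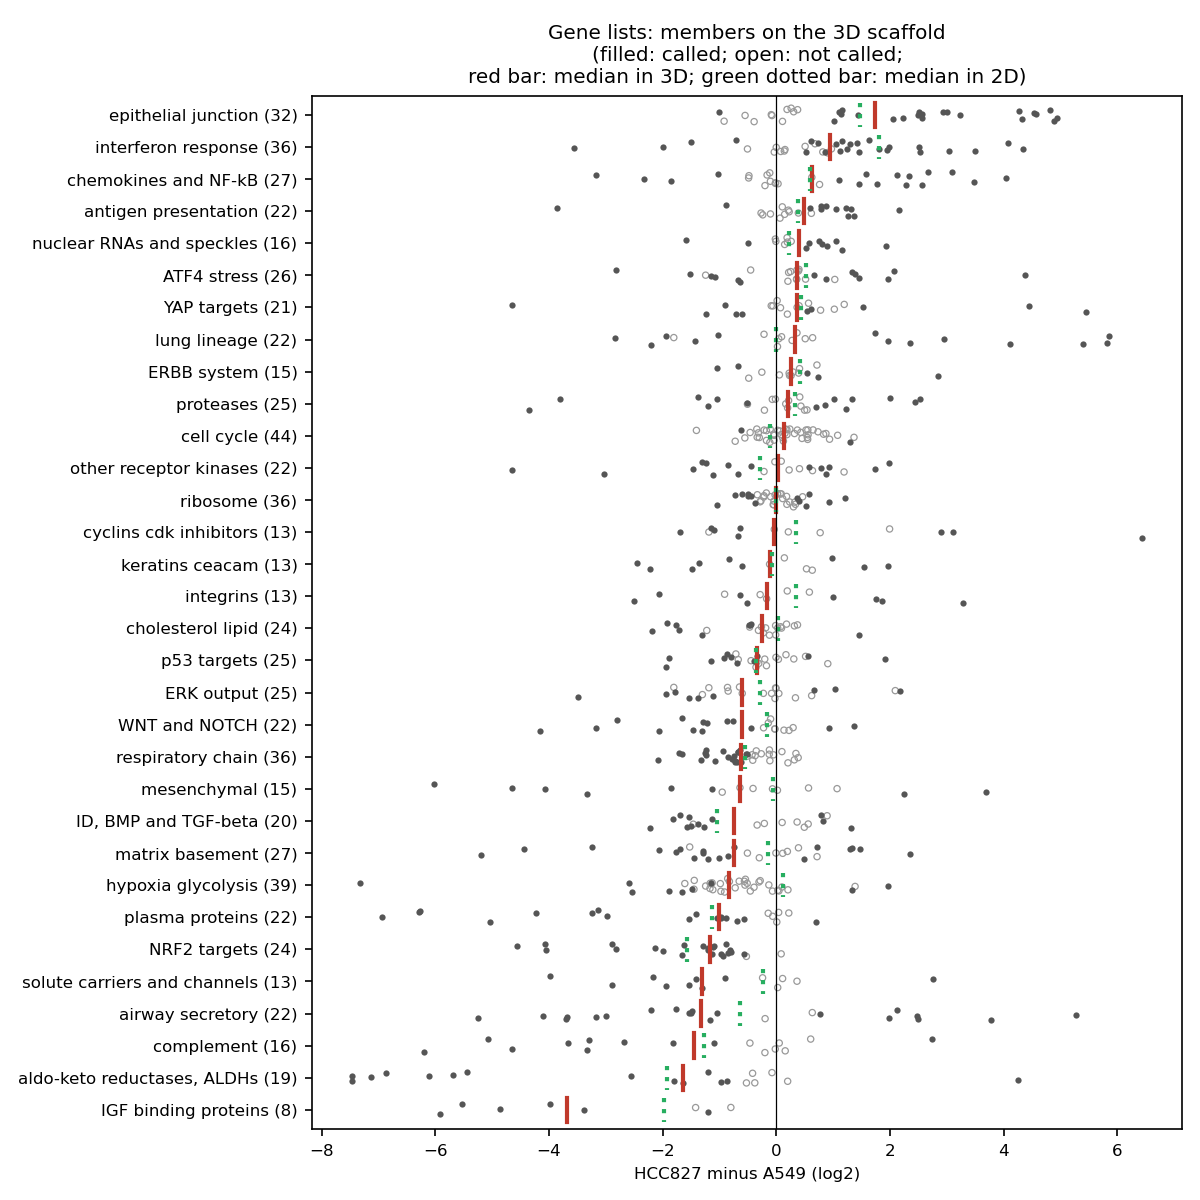
Each point is the scaffold difference between the lines (x axis, log2) of 1 tested gene of a list, filled where called, with list sizes in parentheses. Red bars mark the scaffold median and green dotted bars the 2D median. Junction genes (median 1.74) stand furthest to the right and IGF binding proteins (-3.68) furthest to the left.

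A separate question was which scaffold differences were missing in 2D, meaning only that the 2D difference was under log2 0.5. Called differences of at least log2 1 with a 2D difference under 0.5 were found in 240 genes (2.01% of tested genes), 99 higher in HCC827 (0.83%) and 141 lower (1.18%). The genes nearest the 2D limit were BATF3, at 0.4999, and ATP6V1B1, at 0.5027. A small 2D difference does not show that the lines were alike there. The 2D arrays of the lines overlapped in 28 of the 99 and 52 of the 141, and were apart in the rest. Over all tested genes they were apart in 72.0%, so lying apart in 2D is no trait of these genes. Of the 240 genes, 26 higher and 20 lower also passed the test of the change between cultures. Of all tested genes 201 passed it (1.69%), 98 with a change toward higher HCC827 (0.822%) and 103 toward lower (0.864%). The 240 were chosen on the scaffold and 2D differences whose gap this test measures, so the share of them that passed is no added support. That test was sensitive to the model. With treatment as a term, 22 genes passed, and all 22 were among the 201. With line by treatment added, limma called 0, although 1696 had an unadjusted p under 0.05, beside 2016 in the model used here. Leaving out any 1 of the 4 A549 arrays left 9 to 12 genes with a positive change and 5 to 11 with a negative one. Without the HCC827 3D control array there were 274 and 436, and without the HCC827 2D array labelled gefitinib 137 and 287. The genes missing in 2D numbered 88 to 137 higher and 102 to 278 lower over these omissions, 278 being the count without the HCC827 3D control array. They also depended on scaling, with 161 higher and 90 lower after quantile normalization and 137 higher and 83 lower after cyclic loess.

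How each line differed between cultures was tallied for these genes by direction. A line met the rule when its scaffold and 2D means lay more than 0.5 apart in the direction that widened the scaffold difference. A line that did not meet the rule may still have differed in the other direction. A549 did so for PRODH (1.27 higher on the scaffold) and HCC827 for CCDC183 (0.59 higher). Of the 99 genes higher in HCC827, only HCC827 met the rule in 90, only A549 in 2, both in 4 and neither in 3. Of the 141 lower genes, only HCC827 met it in 64, only A549 in 60, both in 9 and neither in 8. In 37 of the 99 and 9 of the 141, all 2D arrays lay below the array median, so those genes were dim in 2D in both lines. They passed the brightness filter only through scaffold arrays, so the filter bears on these counts. With genes above the median in at least 4 arrays, the counts were 60 higher and 132 lower in place of 99 and 141. In 133 genes with more than 1 bright probe set, all such probe sets stood on the same side on the scaffold in 124. Among all called differences of at least log2 1, this held in 1229 of 1341. Both counts include the probe set that chose the gene. In a bulk culture a larger share of cells of one state and more RNA per cell cannot be told apart.

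**Figure D4:**
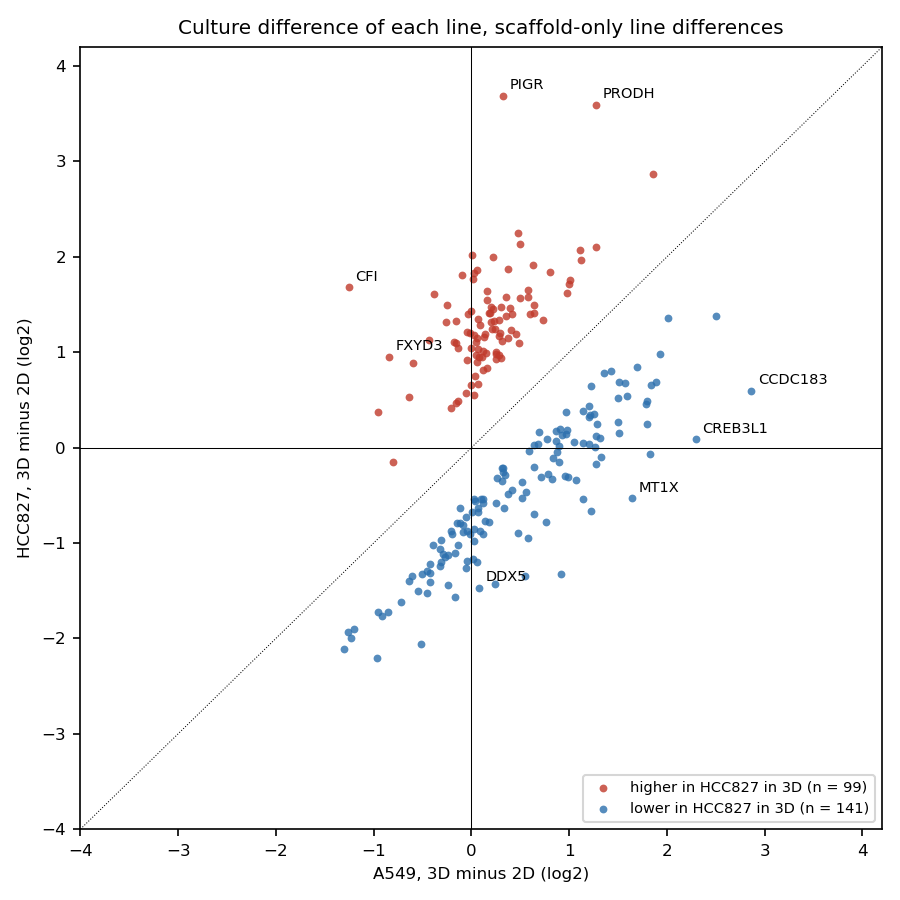
For the 240 genes with a scaffold difference that was under log2 0.5 in 2D, the mean difference between scaffold and 2D is plotted for HCC827 (y axis, log2) against A549 (x axis, log2). Genes higher in HCC827 (red, n = 99) lie mostly near 0 for A549, with some higher there too, and genes lower in HCC827 (blue, n = 141) spread from lower HCC827 values to higher A549 values.

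PIGR had the largest change among the genes higher in HCC827. It read 10.04 and 10.52 in HCC827 and 6.54 and 6.46 in A549 on the scaffold, and 6.49 and 6.69 in HCC827 and 6.20 and 6.16 in A549 in 2D. All but the HCC827 scaffold arrays lay near background, and the difference changed by 3.37 ± 0.23 (adjusted p = 0.00189). CFI read 12.09 and 11.91 in HCC827 and 9.16 and 9.36 in A549 on the scaffold, and 9.96 and 10.68 in HCC827 and 10.72 and 10.31 in A549 in 2D, where the lines overlapped. Here HCC827 was higher by 1.68 and A549 lower by 1.26 (-1.26) on the scaffold, and the change was 2.94 ± 0.36 (adjusted p = 0.0206). PRODH, which starts the breakdown of proline, read 11.45 and 11.73 in HCC827 and 8.69 and 8.99 in A549 on the scaffold, and 8.22 and 7.77 in HCC827 and 7.28 and 7.86 in A549 in 2D. Both lines were higher on the scaffold, HCC827 by 3.60 and A549 by 1.27, and the change was 2.33 ± 0.34 (adjusted p = 0.0253).

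FXYD3, a regulator of the sodium pump, overlapped in 2D and was apart on the scaffold, at 9.97 and 9.52 in HCC827 and 7.85 in both A549 arrays (change 1.80 ± 0.25). Other bright probe sets of FXYD3 stood on the same side on the scaffold with smaller differences, 0.41 and 0.85, so the size rests on the probe set used. The chitinase CHIA read 9.0 and 8.40 in HCC827 and 6.44 and 6.55 in A549 on the scaffold (change 1.80 ± 0.27). The solute carrier SLC60A1 (2.00 ± 0.21), the synaptic adhesion protein NRXN3 (1.59 ± 0.28), NAALADL2 (1.44 ± 0.25), the basement membrane protein FREM2 (1.28 ± 0.20) and the gluconeogenic enzyme FBP1 (1.23 ± 0.18) also passed the test of the change. In these 5 genes the A549 scaffold arrays lay between 5.96 and 6.96. With treatment as a term, the adjusted p of PIGR was 0.00957 and those of the other genes higher in HCC827 named here were between 0.0508 and 0.0943.

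Among genes lower in HCC827 on the scaffold, CREB3L1, a transcription factor of the endoplasmic reticulum, read 6.66 and 6.60 in HCC827 and 9.40 and 9.27 in A549 on the scaffold, and 6.54 in both HCC827 arrays and 6.89 and 7.18 in A549 in 2D. A549 was higher on the scaffold by 2.29 and HCC827 by 0.09, and the change was -2.21 ± 0.17 (adjusted p = 0.00279). For CREB3L1 the lines were also apart on the same side in 2D (-0.50, limma adjusted p = 0.0147). CCDC183 read 7.30 and 7.05 in HCC827 and 9.12 and 9.69 in A549 on the scaffold, and overlapped between 6.43 and 6.68 in 2D (change -2.27 ± 0.28). MT1X, a metallothionein that binds zinc and copper, read 9.31 and 9.86 in HCC827 and 11.99 and 12.19 in A549 on the scaffold, against 10.08 and 10.14 in HCC827 and 10.56 and 10.34 in A549 in 2D (-2.17 ± 0.28). Metallothionein genes are near-identical, and this probe set may read others.

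PXDN, the peroxidase that cross-links basement membrane collagen, read 6.66 and 7.22 in HCC827 and 9.26 and 9.22 in A549 on the scaffold (change -1.90 ± 0.26). CFTR, the chloride channel of airway epithelium, read 6.39 and 6.24 in HCC827 and 7.99 and 7.72 in A549 on the scaffold, and lay between 6.14 and 6.37 in all 2D arrays (-1.36 ± 0.16). TFF3, a trefoil peptide, read 6.54 and 6.40 in HCC827 and 7.99 and 7.94 in A549 on the scaffold (-1.23 ± 0.16). The homeobox gene HOXB9 (-1.45 ± 0.20) and the calcium release channel ITPR1 (-1.25 ± 0.22) also passed. In each of these 5 genes A549 was higher on the scaffold than in 2D, by 0.95 to 1.83, while HCC827 differed between cultures by -0.30 to 0.27.

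DDX5, an RNA helicase, differed in the opposite manner. It read 11.57 and 11.62 in HCC827 and 13.09 and 13.26 in A549 on the scaffold, and 12.96 and 13.17 in HCC827 and 13.17 and 13.03 in A549 in 2D. The HCC827 scaffold arrays lay below the other 6 arrays, and all 5 bright probe sets of DDX5 stood on the same side. The change was -1.55 ± 0.20 (adjusted p = 0.0217). With treatment as a term, CREB3L1 (adjusted p = 0.0164) and CFTR (0.0319) passed among the lower genes named here, and the others had adjusted p between 0.0542 and 0.0584.

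**Figure D5:**
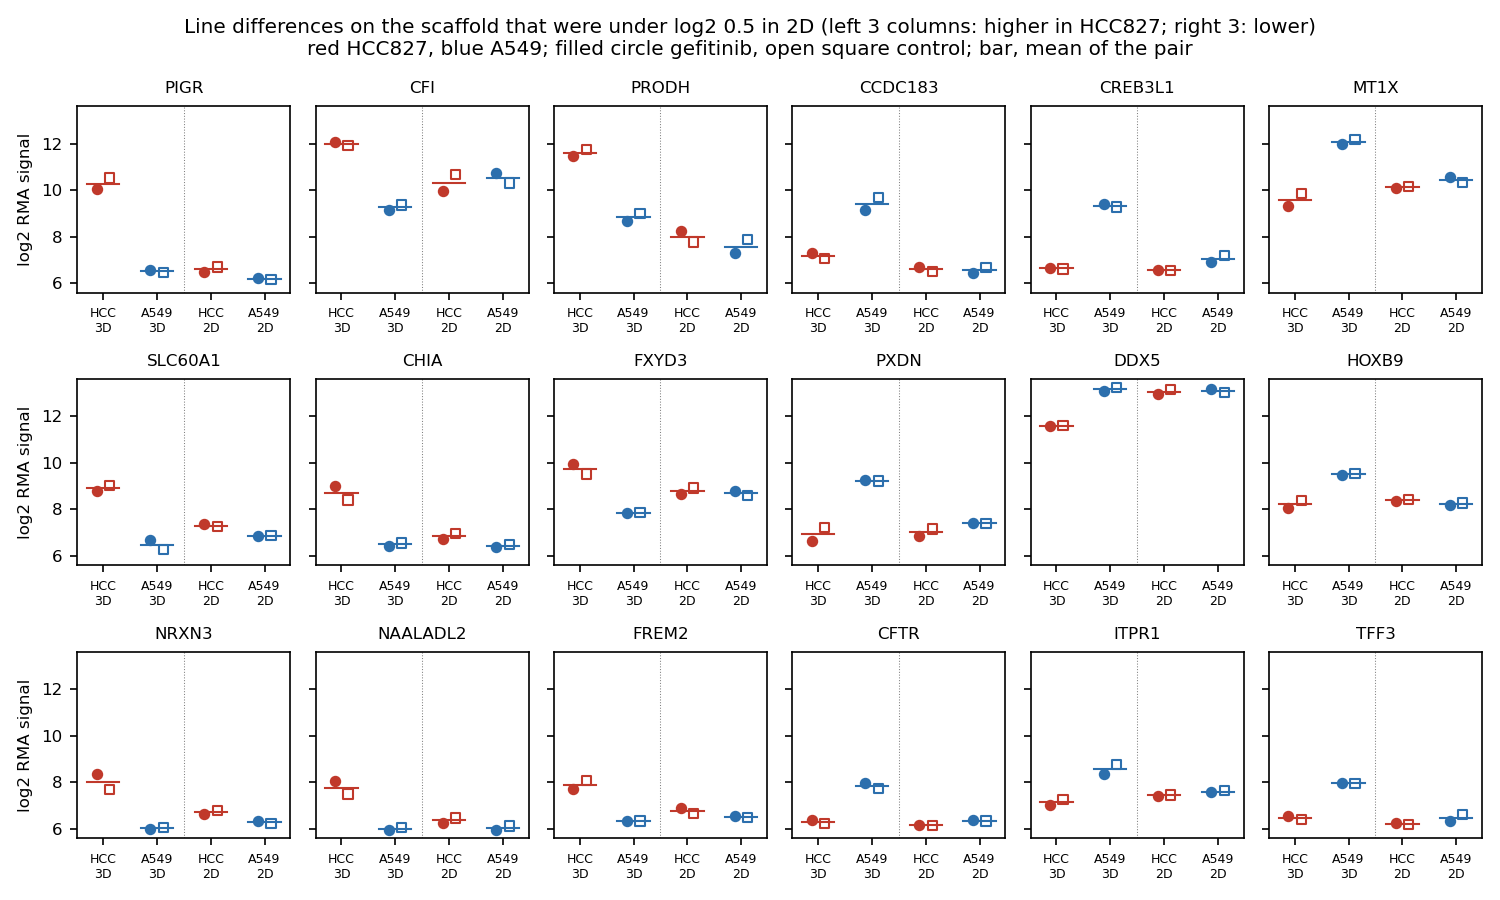
Log2 RMA signal (y axis) of 18 genes is shown for each array, with scaffold pairs left of the dotted line, 2D pairs right of it, HCC827 in red and A549 in blue. The line difference is at least log2 1 on the scaffold and under 0.5 in 2D, with HCC827 higher in the 9 genes of the left columns and lower in the 9 genes of the right columns.

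Scaffold differences that stood on the other side in 2D, by at least 0.5 there, were found in 7 genes (0.0587%). HCC827 was higher on the scaffold in 2 of them (0.0168%) and lower in 5 (0.0419%). C12orf75 read 9.07 and 9.25 in HCC827 and 10.30 and 10.35 in A549 on the scaffold, and 11.21 and 11.43 in HCC827 and 10.69 and 10.57 in A549 in 2D (change -1.86 ± 0.20, adjusted p = 0.0133). CAVIN3, a coat protein of caveolae, read 7.67 and 8.11 in HCC827 and 8.85 and 9.01 in A549 on the scaffold, and 8.72 and 8.39 in HCC827 and 7.96 and 8.02 in A549 in 2D (-1.60 ± 0.25, adjusted p = 0.03). In both genes the groups were apart in each culture and changed sides.

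MTAP, the methionine salvage enzyme encoded beside CDKN2A, also met the rule through the probe set used (-1.10 ± 0.20 on the scaffold and 0.98 in 2D, change -2.08 ± 0.28, adjusted p = 0.0222). Of its other probe sets, 4 gave the opposite direction on the scaffold, 1.92 to 2.96, with A549 between 5.59 and 6.59. The reversal of MTAP therefore rests on 1 probe set. With treatment as a term none of the 3 passed, at adjusted p 0.0508 for C12orf75, 0.0711 for CAVIN3 and 0.0584 for MTAP. GLIPR1 read 7.39 and 7.46 in HCC827 and 8.70 and 8.76 in A549 on the scaffold, and 8.80 and 10.35 in HCC827 and 8.65 and 8.38 in A549 in 2D. Its change was -2.36 ± 0.59 and missed the threshold (adjusted p = 0.102), while its 6 bright probe sets all stood lower on the scaffold and 2 of them overlapped between the lines in 2D. The tropomyosin TPM1 (adjusted p of the change 0.0672), the growth factor BMP2 (0.127) and the cytochrome CYB5A (0.172) missed it too. The probe sets of TPM1 disagreed, with a scaffold difference of -1.09 in the one used and 0.43 and 0.31 in another pair. BMP2 read 9.18 and 8.95 in HCC827 and 7.68 and 7.81 in A549 on the scaffold, and 7.21 and 8.92 in HCC827 and 9.19 and 9.01 in A549 in 2D.

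The count of 7 was 3 without the A549 3D control, A549 3D gefitinib or A549 2D control array, 4 when the HCC827 3D gefitinib array was dropped, but 14 without the HCC827 3D control array or the HCC827 2D array labelled gefitinib.

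In 2D, 1817 called differences reached log2 1 (15.2%), 892 higher in HCC827 (7.48%) and 925 lower (7.76%). Of these, 75 higher and 27 lower were under 0.5 on the scaffold, and 12 and 8 of them passed the test of the change. Other genes passed that test with a called scaffold difference of at least log2 1 and a same-side 2D difference of at least 0.5. Among them, 78 were wider on the scaffold and 22 were narrower. The higher cut on the scaffold favours the wider ones in advance, so the split does not show a general widening.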

How the data were processed

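Gene expression was measured on 8 arrays, 1 for each of 2 lines, 2 cultures and 2 treatments. The deposited values are log2 signals. Per the submitters' processing notes the authors used R 3.2.1 and RMA, and no build is named there. Of 49495 probe sets, 102 control probe sets were left out of the tests. Probe sets with 1 gene symbol (45284) were named through the platform annotation, and 1333 with several symbols were left out. Each gene was represented by the probe set with the highest mean over the 8 arrays. Genes had to exceed the median of the array on 2 or more arrays to be tested.

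limma 3.58.1 (R 4.3.3) was fitted to the 4 groups of line and culture, 2 arrays each, with a variance trend and Benjamini-Hochberg adjustment over 11926 genes. The arrays are single cultures, nothing in the labels says that they are independent repeats, and the p-values measure only the spread between a treated and a control array of a line, which includes the gefitinib effect and may be technical. The number of arrays limits the precision. The fit was tested on simulated data. The simulated arrays had independent scatter and no treatment effect, so that run cannot show how the fit behaves with a treated and a control array as a pair.

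The comparison, its thresholds and the gene lists were chosen with earlier results of these data known, so the list counts are descriptions. Genes were named by rule: the 10 largest differences each way, up to 10 each way among differences absent or reversed in 2D, up to 4 called members of each list, and EGFR, CDKN2A, CDH1, VIM, NKX2-1, NQO1, MKI67 and DUSP6. Of the genes this rule gives, 1 of the largest differences and 1 of those absent in 2D are not reported here, and some list members are left out for length. Promoter sequences came from the RefSeq table (GRCh38.p14). Alternatives were other normalizations, filters, probe set choices and models, and leaving out each array.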

Additional observations from a re-analysis of the deposited data

Results flagged for a closer look

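The difference between the lines itself differed between scaffold and 2D, by limma's test with adjusted p under 0.05, in the following named genes. These calls depended on the model. Of all 201 genes called, 22 passed with treatment as a term and 0 with line by treatment added. Among listed genes absent or reversed in 2D, only PIGR, CREB3L1 and CFTR passed with treatment as a term. For MUC4, DNAH2, EPCAM, CBS, IGFBP5, AXL, COL7A1 and COL4A6 the result of that fit is not given here. The values are HCC827 minus A549 on the scaffold minus the same in 2D (log2). Toward higher HCC827 on the scaffold they were PIGR 3.37, CFI 2.94, MUC4 2.90, DNAH2 2.65, PRODH 2.33, SLC60A1 2.00, EPCAM 1.81, CHIA 1.80, FXYD3 1.80, NRXN3 1.59, NAALADL2 1.44, FREM2 1.28, FBP1 1.23 and CBS 1.11. Toward lower HCC827 they were IGFBP5 -4.09, CCDC183 -2.27, CREB3L1 -2.21, MT1X -2.17, MTAP -2.08, AXL -1.90, PXDN -1.90, C12orf75 -1.86, COL7A1 -1.81, CAVIN3 -1.60, DDX5 -1.55, HOXB9 -1.45, CFTR -1.36, ITPR1 -1.25, TFF3 -1.23 and COL4A6 -1.23. The MTAP value is that of the probe set used, and several other MTAP probe sets stood higher in HCC827 in both cultures.

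In 5 named genes HCC827 lay below A549 among gefitinib scaffold arrays and above it among control scaffold arrays, with 1 array behind each value and the difference not tested. The values (HCC827 minus A549, log2) were -1.58 with gefitinib and 1.67 without for DUSP6, -1.48 and 1.54 for RRM2, -1.27 and 1.05 for CDC6, -1.08 and 1.16 for HILPDA, and -0.66 and 0.23 for MKI67.

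The poly-A spike-in Dap, an RNA added during labelling that enters no comparison, was 3.18 (log2) brighter on average on the 4 scaffold arrays (12.39 to 13.12) than on the 4 2D arrays (9.14 to 9.79). Its part in the results was not tested.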

How the results depend on the processing

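No paired analysis was possible because the labels number no replicates and each condition has 1 array, and the only block that the labels offer is the treatment, fitted as a common term. Counts are given as higher and then lower in HCC827. The change between cultures was called in 10 and 12 genes with treatment as a common term, in 0 and 0 with line by treatment (6 coefficients), in 155 and 182 with the largest-variance probe set, in 35 and 57 with genes above the median in at least 4 arrays, and in 63 toward higher with no variance trend. Scaffold differences absent in 2D were 161 and 90 after quantile normalization, 83 lower after cyclic loess, 92 lower with the mean of a gene's probe sets, 60 higher with the stricter filter, 30 and 48 with a 2D limit of 0.25, and 320 and 495 with a limit of 1. Among alternatives chosen after seeing the data, they were 62 higher when bright in at least 1 2D array and 28 and 52 when the 2D arrays overlapped. Differences of at least log2 1 numbered 627 higher with the mean of probe sets. Reversed genes were 4 with 6 coefficients, cyclic loess or a robust prior, and 3 with the mean of probe sets, the largest-variance probe set or all probe sets in agreement (chosen after seeing the data). The cause of these shifts was not tested, beyond the limits and filters that by construction admit fewer or more genes.

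Leaving out each array gave 1391 to 2475 called higher and 1969 to 3451 lower, 824 to 987 and 1121 to 1507 at log2 1 or more, 9 to 274 and 5 to 436 changes between cultures, 88 to 137 and 102 to 278 absent in 2D, and 3 to 14 reversed. MTAP turned to 1.27 on the scaffold with the mean of probe sets and to 2.96 with the largest-variance probe set, with a change between cultures of 0.01. On the scaffold HILPDA gave -1.26 when the control array of HCC827 was left out and 1.34 when its gefitinib array was. List medians turned to -0.34 for mitosis and replication genes in gefitinib arrays, to 0.42 for integrins and 0.09 for keratins in control arrays, and to 0.02 for keratins with the mean of probe sets. Of the 240 genes absent in 2D, 123 were shared with the mean of probe sets, 171 with cyclic loess and 177 with quantile normalization.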
